A study of Homo sapiens with 2 samples.

Results

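The genes described here are 9 neighbours on the short arm of human chromosome 19, at 19p13.2, around DNMT1 and KEAP1: UBL5, EIF3G, DNMT1, MRPL4, ICAM1, TYK2, CDC37, KEAP1 and ATG4D. They were taken from a fixed list of neighbours, matched by symbol to the Ensembl identifiers of the deposited matrix, and all 9 were found among its 30796 genes. The list had been drawn up with the level in each of 2 cell lines, and the co-variation between cells of one of them, already known, so those values are a description and carry no test. From the start of UBL5 to the end of ATG4D the genes span 726 kb. The samples were MDAMB468 and CAL51, both established human breast cancer cell lines that the labels give as triple negative, with 1 Drop-seq library each and no treatment named in the labels. In Drop-seq each cell is caught in a droplet together with a barcoded bead, and the bead also tags each captured RNA molecule with a short random sequence (a UMI), so that 1 UMI stands for 1 molecule. Each line is represented by 1 library, so no difference has a replicate check, and the 95% intervals given below cover counting error only.

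The members belong to unrelated pathways. DNMT1 is the maintenance DNA methyltransferase, which copies methylation of CpG sites onto the new strand behind the replication fork. KEAP1 is the adaptor that brings the transcription factor NRF2 to a ubiquitin ligase and so keeps antioxidant genes low until oxidants modify it. TYK2 is a Janus kinase of interferon and cytokine receptors, ICAM1 is a surface adhesion molecule for leucocyte integrins that inflammatory signals induce, and CDC37 is the cochaperone that delivers protein kinases to HSP90. EIF3G is a subunit of translation initiation factor eIF3, MRPL4 is a protein of the large subunit of the mitochondrial ribosome, UBL5 is a ubiquitin-like protein of the splicing machinery, and ATG4D is a protease of the ATG8 proteins of autophagy.

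Promoter sequences were taken from RefSeq on GRCh38.p14, which held 7 of the 9 members; EIF3G and ATG4D had no entry. The 250 bases before the start site are shown for 5 members because they contrast the gene with the widest gap between the lines (UBL5), the gene of DNA methylation (DNMT1), the kinase TYK2, and the members with the narrowest gap (ICAM1 and KEAP1). The windows lie at chr19:9827668-9827917 on the plus strand for UBL5, chr19:10194954-10195203 on the minus strand for DNMT1, chr19:10270870-10271119 on the plus strand for ICAM1, chr19:10380573-10380822 on the minus strand for TYK2 and chr19:10503357-10503606 on the minus strand for the first of 2 KEAP1 start sites. Capitals mark matches, on either strand, to 6 motifs: the CCAAT box (CCAAT), the GC box (GGGCGG), the TATA box (TATAAA), a kB site (GGAAATTCC), the core of the antioxidant response element (TGACNNNGC) and an ETS site (CCGGAAG).
UBL5: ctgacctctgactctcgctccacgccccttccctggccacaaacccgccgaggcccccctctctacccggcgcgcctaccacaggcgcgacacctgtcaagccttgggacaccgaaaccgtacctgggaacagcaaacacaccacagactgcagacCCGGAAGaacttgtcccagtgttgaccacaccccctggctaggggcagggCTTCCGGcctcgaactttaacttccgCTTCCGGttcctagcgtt
DNMT1: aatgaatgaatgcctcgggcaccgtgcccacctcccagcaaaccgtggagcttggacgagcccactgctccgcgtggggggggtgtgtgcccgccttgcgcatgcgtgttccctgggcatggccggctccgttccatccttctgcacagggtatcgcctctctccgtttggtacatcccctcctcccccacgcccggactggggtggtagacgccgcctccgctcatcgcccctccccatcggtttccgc
ICAM1: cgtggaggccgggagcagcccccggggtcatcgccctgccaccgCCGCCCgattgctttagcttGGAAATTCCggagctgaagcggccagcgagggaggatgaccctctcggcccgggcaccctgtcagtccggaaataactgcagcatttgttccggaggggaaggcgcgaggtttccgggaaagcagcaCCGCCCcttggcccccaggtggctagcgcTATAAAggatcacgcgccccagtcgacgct
TYK2: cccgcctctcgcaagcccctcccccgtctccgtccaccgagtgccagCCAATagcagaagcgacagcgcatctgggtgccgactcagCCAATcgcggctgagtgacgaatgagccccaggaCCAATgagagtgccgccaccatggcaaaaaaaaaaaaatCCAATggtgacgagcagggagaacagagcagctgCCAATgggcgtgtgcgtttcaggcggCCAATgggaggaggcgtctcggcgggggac
KEAP1: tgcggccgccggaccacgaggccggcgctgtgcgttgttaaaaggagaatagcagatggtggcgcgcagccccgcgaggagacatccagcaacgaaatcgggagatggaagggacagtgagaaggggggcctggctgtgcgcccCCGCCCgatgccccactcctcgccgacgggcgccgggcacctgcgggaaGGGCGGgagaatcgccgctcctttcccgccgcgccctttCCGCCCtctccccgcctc
The windows shared no motif common to them all. UBL5 had 3 ETS sites, at 94, 44 and 18 bases before its start, where 8.52% of 35114 RefSeq promoter windows of this length hold at least 1. TYK2 had 6 CCAAT boxes (32.0% of windows hold at least 1), and KEAP1 had 3 GC boxes (42.6%). ICAM1 was the only one of these 5 with a TATA box (10.7%), and it held a kB site 186 bases before its start, a string found in 0.413% of windows. The kB motif was searched as 1 exact string. This share therefore leaves out other forms of kB site, and nothing is read from it. DNMT1 held no match to any of the 6. These 5 windows were rich in G and C, from 62.0% in TYK2 to 70.4% in KEAP1, against a median of 58.0% over all windows. The windows not shown stood at 49.2% and 65.6% for MRPL4, 68.8% for CDC37 and 74.4% for the second KEAP1 start site. That second KEAP1 window held 2 cores of the antioxidant response element (10.9% of windows hold at least 1), at 54 and 31 bases before its start. A match is a description of letters and not evidence of binding.

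The MDAMB468 library held 306 barcodes with 5501900 UMIs and a median of 10016.5 UMIs per barcode. Of the 1377 CAL51 barcodes, 31 carried a sequence that also occurred in the MDAMB468 library and were left out, which left 1346 barcodes with 16223444 UMIs and a median of 8635 UMIs. A further 64 MDAMB468 barcodes and 7 CAL51 barcodes were satellites: a barcode at least 5 times as rich in UMIs, in the same library, had a sequence 1 base away. Markers matched the labels: KRT5 and KRT7 had 2224 and 5243 UMIs in MDAMB468 and 0 in CAL51, while PDPN and VCAN had 2 and 3 UMIs in MDAMB468 and 19361 and 15682 in CAL51. These markers were chosen from earlier results of the same data. Both lines expressed EPCAM, at 867 and 283 CPM (UMIs per 1000000 UMIs of the line) in MDAMB468 and CAL51. The other 4 epithelial markers went both ways. KRT8 stood at 764 and 919 CPM, KRT18 at 555 and 1555 CPM, and KRT19 at 1934 and 30.6 CPM. CDH1 had 182 UMIs in MDAMB468 and 7 in CAL51. Leucocyte markers were near 0, with PTPRC at 0 and 3 UMIs in MDAMB468 and CAL51, and 4 leucocyte markers summed to 2.91 CPM and 0.740 CPM.

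All 9 members had a higher level in MDAMB468 than in CAL51, and 7 of them by at least 2-fold. The scale used for this count is the log2 difference of CPM + 1, MDAMB468 minus CAL51, on which 2-fold is a difference of 1. Of the 15347 genes with at least 20 UMIs over both lines, 15.8% lay at or above 1, 18.6% at or below -1, and 44.9% above 0. The members were chosen with this contrast known, so these shares are printed beside the members' counts and nothing is read from them. The members' median log2 difference was 1.71, beside -0.13 over all genes.

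The members that serve splicing, translation and mitochondrial protein synthesis had wide gaps, as did CDC37 and TYK2, described below. UBL5 (ENSG00000198258; GRCh38, GENCODE release 29, chr19:9827892-9830115, plus strand) stood at 1677 CPM in MDAMB468 (interval 1643 to 1712; 9227 UMIs) and 356 CPM in CAL51 (interval 347 to 365; 5775 UMIs). Its ratio, 4.71 (interval 4.56 to 4.87), was the highest of the 9. EIF3G (ENSG00000130811; chr19:10115017-10119918, minus strand) stood at 486 CPM in MDAMB468 and 148 CPM in CAL51, a ratio of 3.28 (interval 3.11 to 3.47). MRPL4 (ENSG00000105364; chr19:10251901-10260045, plus strand) stood at 321 CPM in MDAMB468 and 84.9 CPM in CAL51, a ratio of 3.78 (interval 3.52 to 4.06). None of these intervals reached 1, and that of UBL5 did not overlap those of EIF3G and MRPL4. UBL5 has pseudogenes, of which UBL5P2 collected 47 and 16 UMIs in MDAMB468 and CAL51, few beside the UMIs of UBL5 itself.

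DNMT1 had a smaller ratio than these 3, and the kinase-related members CDC37 and TYK2 had larger ones than DNMT1. DNMT1 (ENSG00000130816; chr19:10133345-10231286, minus strand) had 5623 UMIs in MDAMB468, or 1022 CPM (interval 996 to 1049), and 5900 in CAL51, or 364 CPM (interval 355 to 373). The ratio was 2.81 (interval 2.71 to 2.92). CDC37 (ENSG00000105401; chr19:10391134-10420121, minus strand) stood at 539 CPM (2968 UMIs) in MDAMB468 and 140 CPM (2265 UMIs) in CAL51, a ratio of 3.86 (interval 3.66 to 4.08). TYK2 (ENSG00000105397; chr19:10350529-10380676, minus strand) was sparser, with 198 and 160 UMIs in MDAMB468 and CAL51. That put TYK2 at 35.99 CPM and 9.86 CPM, a ratio of 3.65 (interval 2.95 to 4.52). The intervals of CDC37, TYK2 and MRPL4 overlapped, so these counts do not order the 3 ratios.

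ICAM1, KEAP1 and ATG4D had the smallest ratios. KEAP1 (ENSG00000079999; chr19:10486120-10503741, minus strand) had 442 UMIs in MDAMB468, or 80.3 CPM (interval 73.0 to 88.2), and 845 in CAL51, or 52.1 CPM (interval 48.6 to 55.7). Its ratio of 1.54 (interval 1.37 to 1.73) lay below the interval of every member except ICAM1. ICAM1 (ENSG00000090339; chr19:10270835-10286615, plus strand) had 67 and 125 UMIs in MDAMB468 and CAL51, at 12.2 CPM and 7.71 CPM, and a ratio of 1.58 (interval 1.16 to 2.14). ATG4D (ENSG00000130734; chr19:10543895-10553418, plus strand) had 83 and 92 UMIs, at 15.1 CPM and 5.67 CPM, and a ratio of 2.66 (interval 1.95 to 3.62). That interval held the whole interval of DNMT1 (2.71 to 2.92), so these counts do not order ATG4D and DNMT1. ATG4D did not keep its place past 2-fold: its log2 difference of 1.27 became 0.68 with a pseudocount of 10 CPM and 0.55 when every barcode was given the same weight at 2500 UMIs. The signs of all 9 members were the same in the 8 alternatives to the main calculation, and the lowest value of any was 0.32, for ICAM1.

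**Figure D1:**
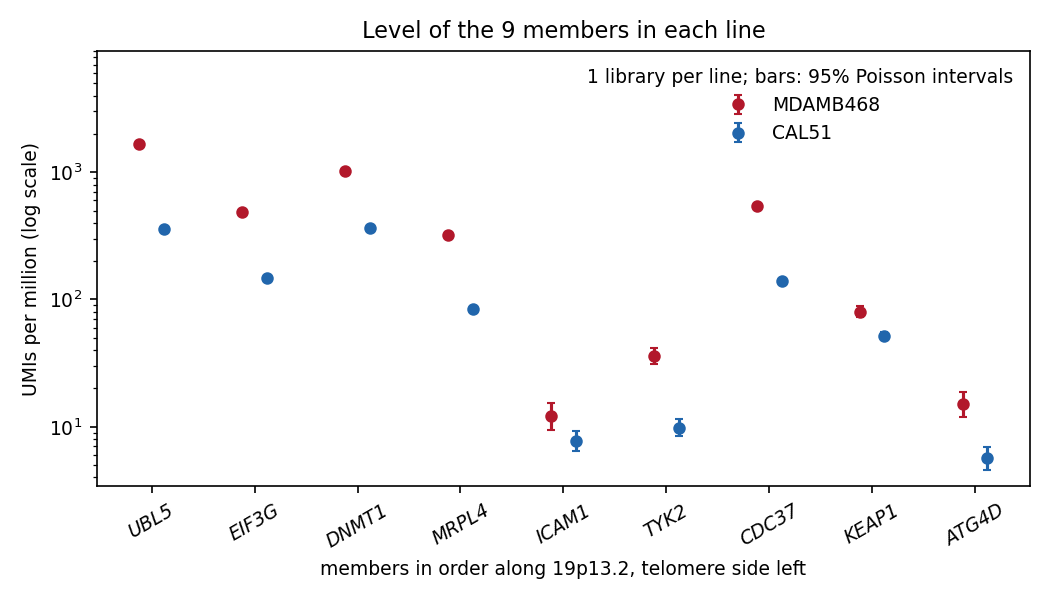
Level of each of the 9 members in the MDAMB468 and CAL51 libraries, in CPM on a log axis, in order along the chromosome, with 95% Poisson intervals of the counts. The MDAMB468 point is above the CAL51 point for every member, with the narrowest gaps at ICAM1 (12.2 against 7.71) and KEAP1 (80.3 against 52.1).

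Several members overlap other genes, and no source used here says whether the counting used the strand. EIF3G overlaps P2RY11 on the opposite strand, and P2RY11, a receptor for extracellular ATP, had 169 and 48 UMIs in MDAMB468 and CAL51. DNMT1 overlaps S1PR2 on the same strand in this annotation (53 and 36 UMIs). CDC37 overlaps the opposite-strand phosphodiesterase gene PDE4A (2 and 56 UMIs), and ATG4D overlaps the end of KRI1, which had 913 and 1050 UMIs, far more than ATG4D. Without strand, reads from the stretch that an opposite-strand pair shares cannot be told apart. For DNMT1 and S1PR2, on the same strand, knowing the strand would not separate reads from the shared stretch. The DNMT1 window printed above (chr19:10194954-10195203) lies outside S1PR2 (chr19:10221433-10231331), so only the longer annotated span of DNMT1 overlaps S1PR2. The CDC37 window before its RefSeq start (chr19:10403543-10403792) likewise lies outside PDE4A, which starts at 10416773. Read positions were not examined.

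Genes between the members that are not on the list give the surroundings. Of the 26 other genes of the interval in the matrix, 14 had at least 20 UMIs, with a median log2 difference of 1.5003. Of these, 9 were at least 2-fold higher in MDAMB468 (15.8% of all genes), 12 were above 0 and 2 were at least 2-fold lower. The highest was P2RY11, at 30.7 CPM in MDAMB468 and 2.96 CPM in CAL51, a ratio of 10.4 (interval 7.50 to 14.6). The lowest was PDE4A, at 0.364 CPM and 3.45 CPM, a log2 difference of -1.71. FDX2, a mitochondrial ferredoxin gene picked out after its values were seen, lay between ICAM5 and ICAM3. It had 711 and 532 UMIs and a ratio of 3.94 (interval 3.52 to 4.42), close to those of TYK2 and CDC37. Of the genes related to ICAM1, ICAM3 had 134 and 233 UMIs and a ratio of 1.70 (interval 1.36 to 2.11). ICAM4 and ICAM5 fell below the minimum of 20 UMIs, with 0 UMIs in MDAMB468 and 9 and 14 in CAL51. Their ratio intervals reached up to 1.49 and 0.889, so no direction is read for ICAM4. ICAM3, ICAM4 and ICAM5 were likewise named after their values were seen.

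The flanking genes had lower medians than the interval. In the 2 Mb towards the telomere, 40 genes with at least 20 UMIs had a median log2 difference of -0.26, with 5 of them past 2-fold in favour of MDAMB468. In the 2 Mb towards the centromere, 56 genes had a median of 0.16, with 10 past 2-fold. The remaining 378 genes of 19p had a median of 0.09 and the 562 genes of 19q one of -0.05. The edges can be read gene by gene, with genes that were picked out after their values were seen. On the telomere side the zinc finger gene ZNF562 had a ratio of 1.10 (interval 0.863 to 1.38), with no stable sign across settings, and ZNF846, the first zinc finger gene further in, one of 4.10 (interval 2.995 to 5.62). None of the 10 genes just before ZNF846 reached 2-fold in favour of MDAMB468, with log2 differences up to 0.14. On the centromere side, beyond ATG4D, AP1M2, an epithelial clathrin adaptor subunit, had a ratio of 30.96 (interval 26.0 to 37.1) on 1470 and 140 UMIs. SLC44A2, a choline transporter gene further out, had a ratio of 16.01 (interval 14.0 to 18.4) on 1357 and 250 UMIs. Within the interval, OLFM2 and PDE4A were the 2 genes at least 2-fold lower in MDAMB468, on 4 and 2 UMIs there.

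**Figure D2:**
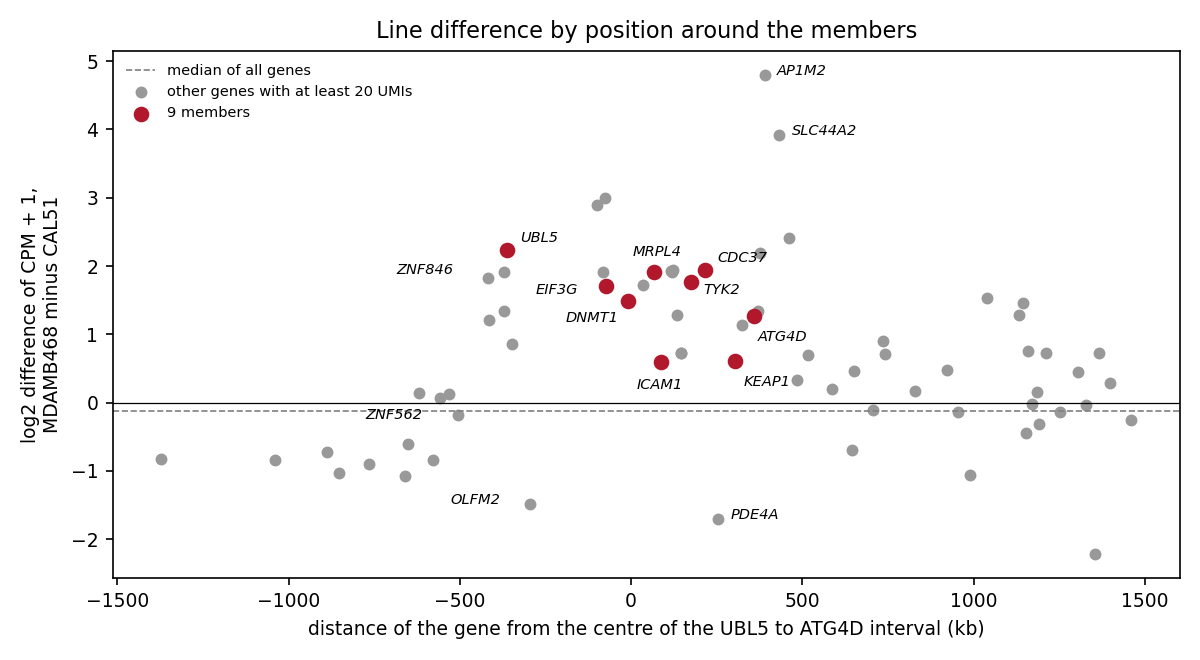
Log2 difference of CPM + 1 between the lines for each gene with at least 20 UMIs, against the distance in kb from the centre of the UBL5 to ATG4D interval, with the members in red and other genes in grey. Of the 9 members 7 lie above 1 and ICAM1 and KEAP1 below it, while ZNF562, outside the interval, lies at 0.12.

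Counts per barcode show how the line contrast that chose the members is spread over cells, and add no support to it. Barcodes with at least 5000 UMIs that were neither satellites nor shared were thinned at random to 5000 UMIs each, which left 208 MDAMB468 and 1069 CAL51 barcodes. The summed UMIs of the 9 members ran from 10 to 36 per barcode in MDAMB468, with a median of 21, and from 0 to 15 in CAL51, with a median of 6. The groups overlapped only at 10 to 15 UMIs, and 181 of the 208 MDAMB468 barcodes lay above the highest CAL51 barcode. Most of this sum was UBL5 and DNMT1, with means of 8.79 and 5.45 UMIs of 21.8 in MDAMB468. For EIF3G, 62.0% of MDAMB468 barcodes lay above the CAL51 median of 1 UMI. UBL5 ran from 2 to 17 UMIs in MDAMB468 (median 8) and from 0 to 8 in CAL51 (median 1). DNMT1 ran from 0 to 14 UMIs (median 5) and from 0 to 10 (median 2), so its ranges overlapped over most of their length. CDC37 averaged 2.86 ± 1.83 UMIs per barcode (SD over barcodes) in MDAMB468 and 0.699 ± 0.875 in CAL51, and KEAP1 averaged 0.370 ± 0.624 and 0.267 ± 0.518. At this depth ICAM1, TYK2, KEAP1 and ATG4D had a median of 0 in both lines, and single barcodes say little about them. ICAM1 in CAL51 had the highest ratio of variance to mean among the members, 1.86, and its highest barcode held 5 UMIs.

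**Figure D3:**
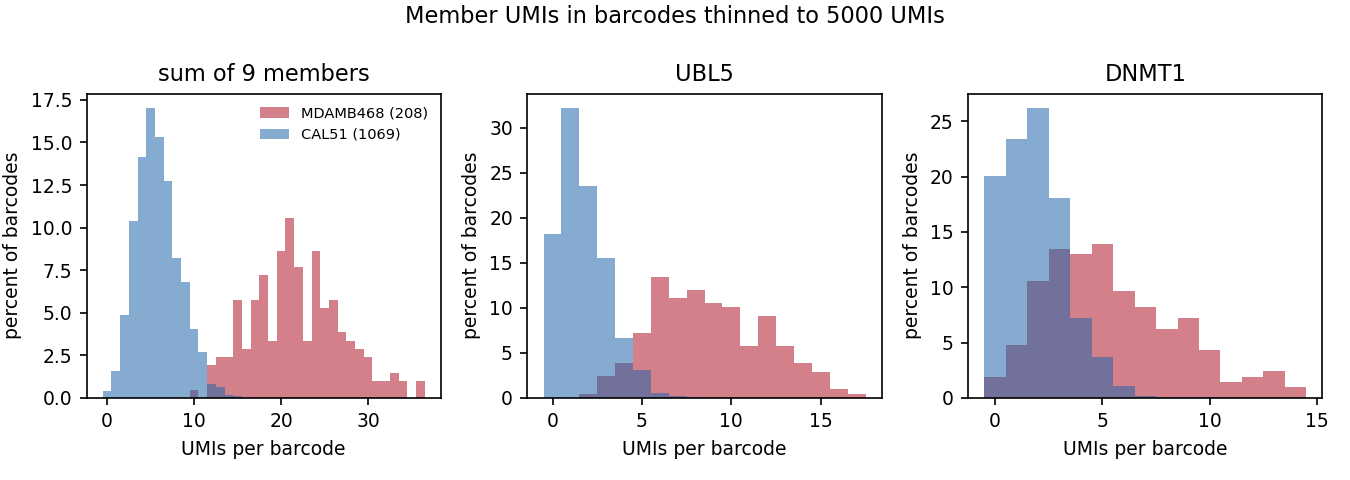
Percent of barcodes with each number of UMIs, after thinning to 5000 UMIs, for the sum of the 9 members, UBL5 and DNMT1, in MDAMB468 (208 barcodes, red) and CAL51 (1069 barcodes, blue). The sums centre on 21 and 6 UMIs and overlap only at 10 to 15, while the DNMT1 distributions overlap widely.

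Correlations between the members over cells of one line, which the choice of members used for MDAMB468, lay around 0 at this depth. Over the 36 pairs of members in the 208 MDAMB468 barcodes the median Pearson correlation was -0.01, with a range of -0.17 to 0.18 and 15 pairs above 0. Among all pairs of the 7427 genes whose mean lay in the range of the members' means and was at least 0.05 UMIs, the median was -0.004 and the 5th and 95th percentiles were -0.10 and 0.12. The highest pair was EIF3G with TYK2 (0.18) and the lowest MRPL4 with TYK2 (-0.17), both pairs with TYK2, whose mean was 0.202 UMIs per barcode. EIF3G had correlations of 0.14 with MRPL4 and 0.13 with CDC37, weak values in sparse counts that are no finding. Most pairs are too sparse to show much, since 26 of the 36 include ICAM1, TYK2, KEAP1 or ATG4D. The 10 pairs among the other 5 members had a median of -0.01 and a range of -0.09 to 0.14 in MDAMB468, and -0.02 and -0.06 to 0.07 in CAL51. The variance of the summed members was 0.944 times the sum of their separate variances, where independent counts give 1. In CAL51, over 1069 barcodes, the median of the 36 pairs was 0.003, the range -0.06 to 0.09 and the variance ratio 0.966. These correlations are descriptions over barcodes of 1 library, which share its depth and its background RNA.

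Other settings gave medians of similar size. In MDAMB468 the median over pairs was 0.02 at 2500 UMIs (242 barcodes), -0.01 at 10000 UMIs (153 barcodes) and 0.03 without thinning, and the variance ratio ran from 0.944 to 1.15. The correlation of each member with the sum of the other 8 ran from -0.13 (DNMT1) to 0.04 (EIF3G). The sum of the members had correlations of -0.06 with the log of the barcode's total and -0.16 with mitochondrial UMIs in MDAMB468, and 0.06 and -0.10 in CAL51. With mitochondrial UMIs, MRPL4 had -0.25 in MDAMB468 and -0.17 in CAL51, and EIF3G had -0.20 and -0.10. Their part in the result was not tested.

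**Figure D4:**
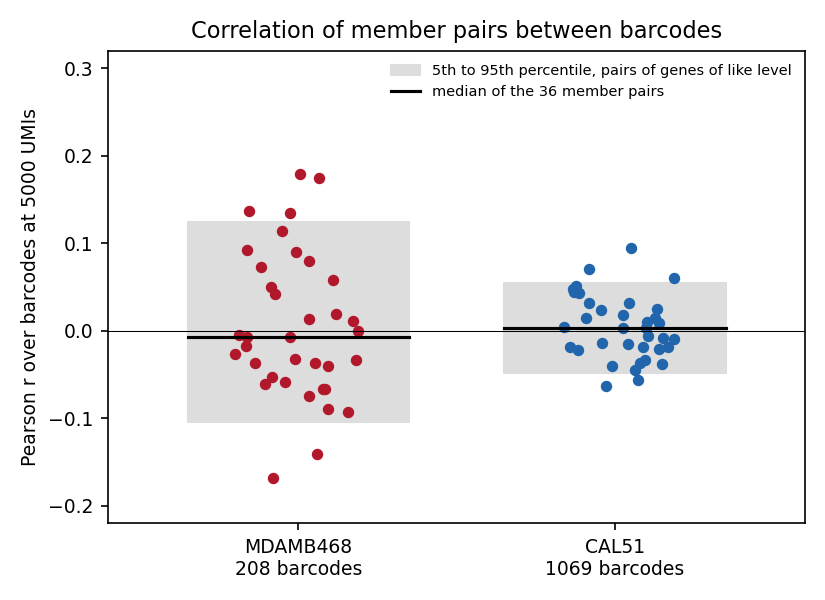
Pearson correlation of each of the 36 pairs of members over barcodes at 5000 UMIs, one point per pair, in MDAMB468 (208 barcodes) and CAL51 (1069 barcodes), with the median as a black line and the 5th to 95th percentile of pairs of genes of like level in grey. The medians are -0.01 and 0.003, and most points lie inside the grey bands.

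The unlisted genes of the interval had slightly higher correlations with the members in MDAMB468 than other genes, in all settings run but 1. The 8 other genes of the interval with a mean of at least 0.05 UMIs had a median correlation with the summed members of 0.08 in MDAMB468, beside -0.001 over 7791 genes of other chromosomes, -0.003 over the rest of 19p and 0.01 over 19q. The gap between the interval and other chromosomes was 0.0789, ran from 0.0323 to 0.0828 in 5 other settings and was -0.0516 at 10000 UMIs. Correlations of this size in sparse counts are a description of this library and no finding. In CAL51 only 4 interval genes were counted, with a median of 0.01. MDAMB468 barcodes were then ordered by the summed UMIs of all 26 other interval genes. That sum averaged 1.09 UMIs in the lowest tertile and 4.42 in the highest. The members averaged 21.1 UMIs in the lowest tertile and 22.8 in the highest (69 barcodes each), with an SD of 5.20 over single barcodes. This gap of 1.77 UMIs ran from 0.912 to 2.45 in the 4 other settings run, all of them positive. In CAL51 the members averaged 5.77 and 5.90 UMIs in the same tertiles, and the gap changed sign at 2500 UMIs. The lowest CAL51 tertile held 0 UMIs of the other interval genes. Among the genes most like the summed members in MDAMB468 were RPL10P16 (0.25), SAMD1 (0.22), EIF3K (0.22) and NCLN (0.22) on chromosome 19 and ATF3 (0.25), COL4A5 (0.24), DIDO1 (0.24) and TDRD3 (0.23) elsewhere. Of the 50 genes with the highest correlation, 4 were again among the highest 50 with another random draw of the same depth, so this ranking is not a stable description.

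Among the members, DNMT1 had the highest correlation with S-phase genes in both lines. Its correlation with the summed UMIs of 12 genes of DNA replication (MCM2, MCM4, MCM5, MCM6, PCNA, TYMS, RRM2, GINS2, FEN1, CDC6, UHRF1 and SLBP) was 0.28 in MDAMB468 and 0.25 in CAL51. The other 8 members ran from -0.04 to 0.11 in MDAMB468 and from -0.02 to 0.02 in CAL51. In counts, DNMT1 averaged 4.35 ± 3.03 UMIs (SD over barcodes) in the tertile of MDAMB468 barcodes lowest in these genes and 6.70 ± 2.81 in the highest tertile (69 barcodes each). In CAL51 it averaged 1.47 ± 1.44 and 2.20 ± 1.51 (356 barcodes each). The other 8 members together averaged 15.8 and 16.6 UMIs in the MDAMB468 tertiles and 3.98 and 3.95 in those of CAL51. The lowest MDAMB468 tertile, at 4.35 UMIs, stood above the highest CAL51 tertile, at 2.20. Tertiles were set within each line and the members were chosen with the line contrast known, so nothing is read from this order. The part of the cell cycle in the line difference was not tested. At 2500 and 10000 UMIs, which also change the set of barcodes, the correlation was 0.14 and 0.41 in MDAMB468 and 0.17 and 0.26 in CAL51. With 12 genes of mitosis (TOP2A, MKI67, CDK1, CCNB1, CCNB2, PLK1, AURKA, CENPF, CENPE, UBE2C, TPX2 and BIRC5) the correlation of DNMT1 was -0.12 and 0.02, and that of UBL5 was -0.22 in MDAMB468 and -0.04 in CAL51. Background RNA enters these sums, and its part was not tested.

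Among the genes that work with each member, list medians ran from -0.53 for CDC37 partners to 1.40 for the NF-kB targets set beside ICAM1, with -0.13 over all genes. Lists of partners were set beside each member, and genes with at least 20 UMIs were counted against the 15.8% and 18.6% of all genes at least 2-fold higher and lower in MDAMB468. Of 9 DNMT1 partners, 1 was at least 2-fold higher, the de novo methyltransferase DNMT3A (49.98 CPM in MDAMB468 and 18.3 CPM in CAL51, log2 difference 1.41), and 1 at least 2-fold lower, the chromatin remodeller HELLS (93.6 and 258 CPM, -1.45). UHRF1, named here after its values had been seen, brings DNMT1 to newly made DNA and stood at 16.5 and 29.9 CPM. The list's median was -0.29.

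KEAP1's partners went both ways, with 6 of 8 above 0, beside 44.9% of all genes. NFE2L2, which encodes NRF2, stood at 126 CPM in MDAMB468 and 119 CPM in CAL51 (ratio 1.06, interval 0.968 to 1.15), and CUL3, the ligase scaffold, at 91.4 and 74.0 CPM. The sign of NFE2L2 changed with the scaling (lowest log2 difference -0.06). NFE2L2 and CUL3 were picked out after their values were seen. Among the 8 partners, MAFK was highest (log2 difference 1.19) and MAFG lowest (-0.91), with a median of 0.18. The 12 NRF2 targets went both ways. ME1, malic enzyme, had 209 and 6 UMIs and a ratio of 103 (interval 46.4 to 283). TXNRD1, thioredoxin reductase, stood at 105 and 272 CPM (log2 difference -1.37). Of these 12 genes 3 were at least 2-fold higher in MDAMB468 and 1 at least 2-fold lower, and the median of 0.06 had no stable sign across scalings.

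Around TYK2, the receptor-associated kinase JAK1 was highest, at 83.1 CPM in MDAMB468 and 8.08 CPM in CAL51, a ratio of 10.3 (interval 8.45 to 12.6). STAT2 was lowest, at 9.09 and 18.6 CPM (log2 difference -0.96). Of 9 TYK2 partners with at least 20 UMIs, 2 were at least 2-fold higher and 0 lower, with a median of 0.20 that became -0.25 when each barcode weighed the same. For ICAM1, 6 of 10 other NF-kB targets were at least 2-fold higher in MDAMB468 and 0 lower, with a median of 1.40. With a pseudocount of 10 CPM the median was 0.47 and 1 of the 10 was past 2-fold. They ran from NFKB2 (4.18 and 7.77 CPM, log2 difference -0.76) to BIRC3, an inhibitor of apoptosis (19.99 and 1.17 CPM, a ratio of 17.1, interval 10.4 to 29.4). Those 6 genes had 17 to 110 UMIs in MDAMB468 and 4 to 26 in CAL51.

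The remaining lists had medians near or below 0. Of 8 CDC37 partners, 0 were at least 2-fold higher and 2 lower, with a median of -0.53. The kinase client CDK4 was lowest (74.0 and 327 CPM, log2 difference -2.13) and FKBP5 highest (18.9 and 18.5 CPM, 0.03), and the sign of FKBP5 changed with the scaling. Of 10 eIF3 subunits, 1 was at least 2-fold higher, EIF3M (577 and 189 CPM, log2 difference 1.6026), EIF3F was lowest (-0.69) and the median was 0.25, beside 1.71 for EIF3G. Of 15 proteins of the large mitochondrial ribosome 0 passed 2-fold in either direction, but up to 1 in each direction did under other settings (MRPL51 at -1.07 with median-of-ratios factors, MRPL22 at 1.16 with barcodes of equal weight). They ran from MRPL51 (-0.93) to MRPL22 (0.97), with a median of -0.19, beside 1.91 for MRPL4. Of 9 genes of the ATG4 family and its substrates, ATG4A was the only one at least 2-fold higher (25.8 and 8.57 CPM, log2 difference 1.49), ATG7 was lowest (-0.75) and the median of 0.03 had no stable sign. Of 7 splicing partners of UBL5, 0 passed 2-fold, between EFTUD2 (-0.87) and SART1 (0.80), with a median of -0.37. EFTUD2 was at -1.0012 and -1.01 with the 2 sets of scaling factors and at -1.39 with barcodes of equal weight. Across the 8 alternative settings the counts past 2-fold moved by at most 1 in each direction for every partner list other than the NF-kB targets.

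**Figure D5:**
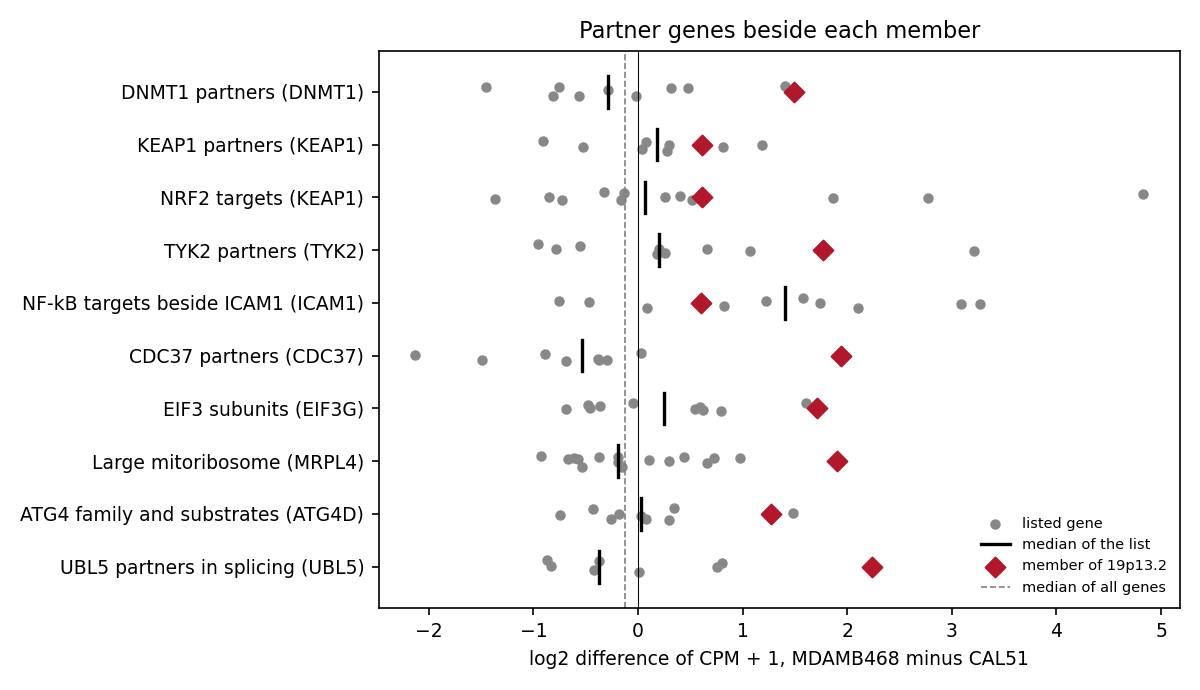
Log2 difference of CPM + 1, MDAMB468 minus CAL51, for the genes of each partner list (grey points, at least 20 UMIs), their median (black line) and the 19p13.2 member the list belongs to (red diamond). The diamond lies to the right of the list's median in every row except that of NF-kB targets, where ICAM1 at 0.60 lies left of 1.40.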

How the data were processed

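Per the file headers, the authors deposited a sparse integer matrix of 30796 genes by 1683 barcodes. The deposited values are raw UMI counts, whole and unscaled. STARsolo is named in the submitters' processing notes. Genome build, annotation, strand setting and barcode selection: not given in the sources used here. Barcode names, deposited by the authors, start with the cell line and carry a 12-base sequence. Gene symbols were looked up by identifier (30730 matched), and positions were taken from GENCODE release 29 on GRCh38 (29416 matched).

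The 9 members and all lists were chosen with earlier results of these data known. UMIs were summed per line and expressed per 1000000 UMIs (CPM). The 31 shared barcode sequences were left out of CAL51. Counts carry exact Poisson intervals and ratios exact intervals conditional on the total count, all covering counting error only. With 1 library per line no test was possible. Log2 differences use a pseudocount of 1 CPM and a minimum of 20 UMIs over both lines. Co-variation used barcodes thinned to 5000 UMIs and no satellites. Genes correlated with the summed members, and the pairs of genes of like level, needed a mean of at least 0.05 UMIs. The members themselves were kept at any mean. In CAL51, ICAM1 (0.0337 UMIs), TYK2 (0.0402) and ATG4D (0.0318) lay below that minimum. No doublets were removed. Named genes are the members, the highest and lowest gene of each list and of the interval among those with at least 20 UMIs, and the 5 genes of chromosome 19 and 5 of other chromosomes most correlated with the summed members. A few items that this rule or the position of the genes would name are not reported here. The 2 lists of S-phase and mitotic genes were written after the matrix had been opened. The calculations were tested on simulated data. Alternatives changed the pseudocount, scaling (TMM from edgeR 4.0.16 in R 4.3.3, median of ratios), barcode set, depth and correlation. Scripts ran under Python 3.11.15 with scipy 1.17.1 for intervals, numpy 2.4.6 and pandas 2.3.3 for sums, and matplotlib 3.10.9 for plots.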

Additional observations from a re-analysis of the deposited data

Results flagged for a closer look

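The 31 CAL51-labelled barcodes that were left out because their sequences also occur in the MDAMB468 library held 551 UMIs of the 9 members among 135240 UMIs. That is 4074 CPM (interval 3741 to 4429), against 1168 CPM in the other CAL51 barcodes and 4189 CPM in MDAMB468. These barcodes enter no main comparison and were kept only as an alternative setting. Its make-up differed from that of the MDAMB468 barcodes with the same 31 sequences. EIF3G stood at 1435 CPM in the left-out barcodes and 494 CPM in those MDAMB468 barcodes, with UMIs in all 31 left-out barcodes and at most 16 in any 1. UBL5 stood at 643 CPM and 1641 CPM, and MRPL4 at 303 CPM and 324 CPM. The cause was not tested.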

How the results depend on the processing

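No paired analysis was possible because each line has 1 library and the labels give no replicate numbers. The members' median log2 difference of 1.71 became 1.47 with a pseudocount of 10 CPM, 1.58 with TMM factors, 1.56 with median-of-ratios factors, 1.81 with totals without mitochondrial and ribosomal protein genes, 1.61 with shared barcodes kept and 1.59 with barcodes of equal weight. Those 2 sets of scaling factors shifted the median of all genes by -0.12 and -0.13, and relative to it the members' median was 1.82 in both. From 6 to 7 members were past 2-fold across the settings. The count of all genes at least 2-fold higher in MDAMB468 was 2429 and became 1337 with a minimum of 100 UMIs, since fewer genes are counted, and 3016 with no minimum. The median of the other interval genes, 1.5003, became 0.73 with a pseudocount of 10 CPM, which pulls low counts towards 0. The gap in correlation between interval genes and other chromosomes, 0.0789, became -0.0516 at 10000 UMIs, and the cause was not tested. Among the list medians and the highest and lowest gene of each list, 3 medians and FKBP5 changed sign. NRF2 targets came to -0.0572 with TMM and -0.0671 with median-of-ratios factors. The ATG4 list came to -0.10 and -0.11 with these factors, to -0.0227 with shared barcodes kept and to -0.0035 without satellites. FKBP5 came to -0.10 and -0.11 with these factors and to -0.0121 with barcodes of equal weight, where the TYK2 list came to -0.25. Depth limits ICAM1, TYK2 and ATG4D, with 67 to 198 UMIs in MDAMB468. Alternatives for list medians, named list genes, interval genes and the S-phase correlation were chosen after seeing the data.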
